A study of Mus musculus with 2 samples.

Results

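The genes described here are 48 chaperone and unfolded protein response genes out of 27179 genes in the count table. They were chosen by name for their function, with earlier results of these data known. Each was found in the count table by its Entrez Gene number. They fall into 9 roles: 26 genes work in the cytosol, nucleus or mitochondria and 22 belong to the endoplasmic reticulum (ER). The measured cells came from ALL65, a primary T cell acute lymphoblastic leukaemia of the mouse (Vav-tTA;TRE-GFP-shIkaros), in which the Vav promoter drives a tetracycline-controlled activator in blood cells and the activator drives a hairpin RNA against Ikaros linked to green fluorescent protein (GFP). Both groups carry both transgenes, and ALL65 is 1 leukaemia grown in recipient mice. The untreated group consists of GFPhigh cells sorted from spleen. The other group consists of GFPmid cells sorted from spleen after 3 days of doxycycline (Dox), which shuts off the hairpin and lets Ikaros return. The groups thus differ in sort gate as well as in treatment, and the 2 cannot be told apart. The design text names 3 mice per group and 2 sequencing runs of each RNA, but each group has 1 column of counts, so the differences lack a replicate check and carry neither a test nor a p-value.

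Chaperones are proteins that help other proteins reach and keep their folded shape. HSP70 proteins bind unfolded stretches in cycles set by J-domain partners and exchange factors, HSP90 acts on nearly folded clients, and the ring-shaped CCT complex encloses actin and tubulin. Heat shock factors switch on cytosolic chaperone genes when unfolded proteins build up. In the ER, secreted and surface proteins are folded by BiP (Hspa5), GRP94 (Hsp90b1), lectins and disulphide isomerases, and the unfolded protein response (UPR) adjusts the supply through the sensors IRE1 (Ern1), ATF6 and PERK. IRE1 acts by splicing the Xbp1 transcript and ATF6 by cleavage of the protein, so that counts per gene do not measure the activity of either.

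Depth was 7477988 counts in untreated cells and 14457475 counts with Dox. Ikzf1, the gene of Ikaros and the target of the hairpin, stood at 262 CPM (counts per scaled library size) without and 1455 CPM with Dox. Of the 14 listed T cell identity genes, 13 reached a mean of 1 CPM, with a summed level of 8708 and 11037 CPM. Both sums include Ikzf1. Of these 13, 5 stood at least 1.5-fold higher with Dox, against 6.28% of all genes past 5 CPM. They were Ikzf1 itself, Cd8b1 by 2.40-fold, Cd4 by 1.78-fold, Cd8a by 1.74-fold and Cd247 by 1.71-fold. Another 4 stood lower with Dox. Cd3g stood at 350 CPM without and 289 with Dox, Cd3d at 375 and 316, Lck at 1338 and 1156 and Cd3e at 260 and 244. The differences of the 5 higher genes exceed those of any of the 48 genes described here. The part of the T cell identity genes in the chaperone values was not tested. None of 8 B cell markers reached a mean of 1 CPM (summed 1.05 in each library), and Ms4a1, Pax5 and Fcer2a had 0 counts in both libraries. Of 6 plasma cell markers, a cell type rich in ER chaperones, 2 reached it, with a summed level of 169.7 and 102 CPM. Mzb1 and Tnfrsf17 had 0 counts in both, Jchain had 1 and 2, and Prdm1 2 and 17. Sdc1 stood at 112 CPM without and 69.2 with Dox and Irf4 at 57.8 and 31.2, so that the measured plasma cell markers stood lower with Dox and the scarce Prdm1 higher. Of 11 myeloid markers 2 reached it (summed 16.7 and 17.5 CPM, with S100a8, Elane, Mpo and Ly6g at 0 in both). They stood on opposite sides, Lyz2 at 7.24 and 1.69 CPM and Itgam at 8.42 and 14.7. A mean of 1 CPM was also reached by 3 of 6 erythroid (10.1 and 10.8 CPM) and 4 of 8 stromal and endothelial markers (361 and 329 CPM, with Col3a1, Cdh5 and Kdr at 0 in both). Among the latter, Pdgfrb stood at 35.3 and 10.5 CPM and Col1a2 at 165 and 112, while Pecam1 stood at 159 and 205. The part of these cells in the values below was not tested. In such bulk samples a change in the mix of cells and a change in RNA per cell cannot be told apart.

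The chaperone genes did not all stand on one side of 0: those of the ER stood mostly higher with Dox, and those of the mitochondria and the CCT complex lower. All differences were small. Of the 46 genes with at least 5 CPM, 0 reached 2-fold in either direction, 0 were 1.5-fold lower and only Manf was at least 1.5-fold higher. Differences are given as the log2 ratio of Dox over untreated with an exact 95% interval for counting error in parentheses. Over all 10113 genes that reached 5 CPM in either library, 6.28% were at least 1.5-fold higher with Dox and 6.18% at least 1.5-fold lower, and 2.21% and 2.24% were at least 2-fold higher and lower. The 15 ER folding genes stood higher with Dox in 14 cases and had a median log2 ratio of 0.25. All 4 mitochondrial chaperones stood lower, with a median of -0.34, as did all 7 CCT subunits, with a median of -0.10. Of all genes past 5 CPM, 51.8% stood higher with Dox and 48.2% lower. The median over all genes with a mean of at least 1 CPM was 0.01, with 25th and 75th percentiles of -0.20 and 0.22.

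**Figure D1:**
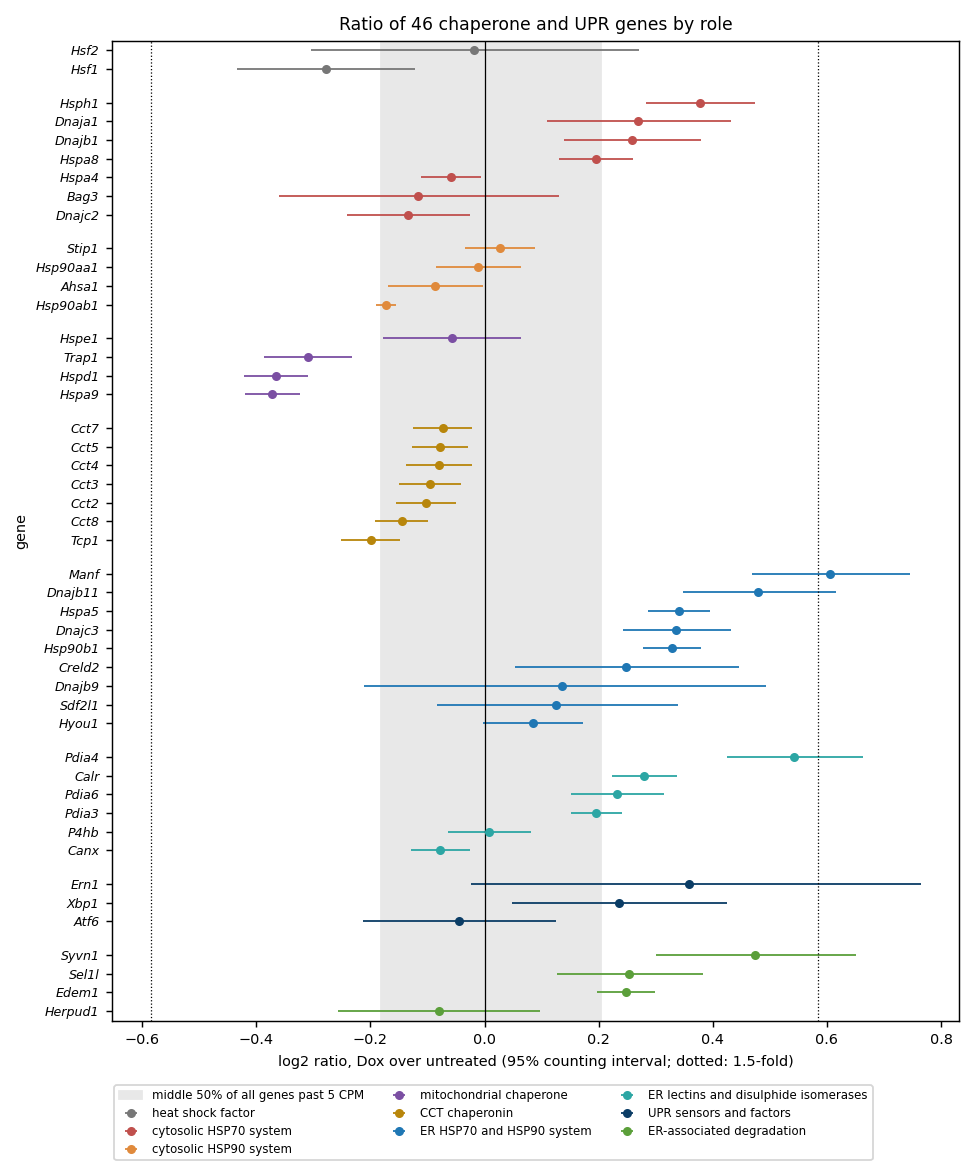
Log2 ratio of Dox over untreated (x axis) for the 46 chaperone and UPR genes past 5 CPM (y axis), coloured by role, with exact 95% counting intervals as bars and the middle 50% of all genes as a grey band. The ER genes lie mostly to the right of 0, up to 0.61 for Manf, and the mitochondrial and CCT genes to its left, down to -0.37 for Hspa9.

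The interval lay wholly above 0 for 18 of the 46 genes and wholly below 0 for 16. The same held for 26.9% and 23.8% of all genes past 5 CPM, the minimum used for the 46. Among the 2938 genes that reached 100 CPM, a level chosen after the values were seen, it held for 40.6% and 28.1%. Some of the 46 genes, such as Ern1 and Dnajb9, did not reach 100 CPM, so these last shares are not at the same minimum. These intervals hold counting error only, with no spread between mice, sorts or library preparations, and a difference of the size seen here could lie within that spread.

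Many of the ER genes share a known sequence before their starts, which is shown first. RefSeq windows (GRCm38.p6, 250 bases before to 50 after an annotated start) were held for 38 of the 48 genes, 19 of the ER and 19 of the other compartments. They were searched on both strands for the ER stress element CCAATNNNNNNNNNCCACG, which ATF6 is known to bind together with the factor NF-Y, for the ER stress element II ATTGGNCCACG, for the UPR element TGACGTGG and for a heat shock element of 3 units, GAANNTTCNNGAA. The ER stress element was found in 8 of the 19 ER genes and in 0 of the 19 others, against 37 of 27025 genes with a window (0.137%), and in 0.119% of all 32851 windows. This motif was defined on genes of this kind, so its presence is a description and not a finding of these libraries. The matches, shown as the sequence that the 8 genes share, are read on the strand of the motif, 5′ to 3′, with the letters that the motif fixes in capitals:
Hspa5: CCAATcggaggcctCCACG
Hsp90b1, far: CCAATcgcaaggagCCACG
Hsp90b1, near: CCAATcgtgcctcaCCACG
Dnajc3: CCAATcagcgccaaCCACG
Creld2: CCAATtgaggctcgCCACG
Calr: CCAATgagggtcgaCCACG
Canx: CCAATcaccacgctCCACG
Pdia6: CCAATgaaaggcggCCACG
Syvn1: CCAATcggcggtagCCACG

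The first base of the match lay 65 bases before the start in Hspa5, 44 in Syvn1, 98 in Pdia6, 105 in Dnajc3, 126 in Creld2, 145 in Canx and 162 in Calr. Hsp90b1 held 2 matches, 212 and 107 bases before the start and on opposite strands. Of these 8 genes, 7 had a ratio above 0 and Canx one below, and their median log2 ratio was 0.30. The 9 ER genes with a window and no match of any motif had a median of 0.23, and all 9 stood above 0, so both sets lay on the same side. The ER stress element II was found in Dnajb11 and Herpud1 (0.0365% of all windows), which differed, with log2 ratios of 0.48 and -0.08. The UPR element was in 0 of the 38 genes and in 0.676% of all windows.

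The upstream stretches of Hsp90b1, which holds the motif on both strands, of Syvn1, whose log2 ratio was 0.47, and of Canx, the gene with the motif whose ratio lay below 0, are printed for comparison, with the ER stress elements in capitals. In GRCm38.p6 they are chr10:86705510-86705694 on the minus strand, chr19:6046326-6046575 on the plus strand and chr11:50325674-50325923 on the minus strand, 5′ to 3′ in the direction of the gene and ending where the RefSeq start or, in Hsp90b1, an exon of GENCODE begins. In Hspa5 a GENCODE exon, of which neither gene nor strand was read, begins 120 bases before the RefSeq start, upstream of the match:
Hsp90b1: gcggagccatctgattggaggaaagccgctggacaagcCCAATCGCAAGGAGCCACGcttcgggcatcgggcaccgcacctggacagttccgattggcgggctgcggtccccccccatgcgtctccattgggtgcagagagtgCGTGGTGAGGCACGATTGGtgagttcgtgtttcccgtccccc
Syvn1: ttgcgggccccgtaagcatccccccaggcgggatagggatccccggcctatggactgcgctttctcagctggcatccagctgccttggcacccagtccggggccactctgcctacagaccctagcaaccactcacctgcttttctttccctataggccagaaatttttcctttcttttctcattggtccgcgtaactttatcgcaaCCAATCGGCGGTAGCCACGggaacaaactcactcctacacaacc
Canx: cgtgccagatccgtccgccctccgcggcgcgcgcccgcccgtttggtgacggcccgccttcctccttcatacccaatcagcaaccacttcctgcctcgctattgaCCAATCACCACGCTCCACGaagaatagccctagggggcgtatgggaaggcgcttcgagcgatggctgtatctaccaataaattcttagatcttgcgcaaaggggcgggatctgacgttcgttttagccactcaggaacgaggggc

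**Figure D2:**
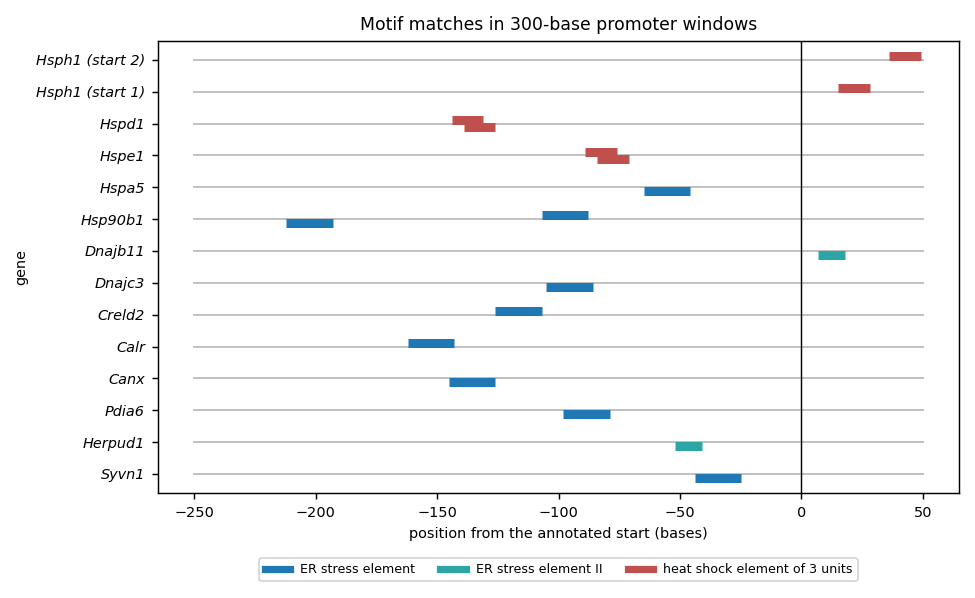
Motif matches (coloured bars) in the 300-base promoter windows of the 13 genes with a match (y axis), by position from the annotated start in bases (x axis); bars below a line are on the strand of the gene and bars above it on the other strand. ER stress elements lie before the start in 8 genes, and the heat shock elements of Hspd1 and Hspe1 are the same stretch seen from both genes.

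The heat shock element of 3 units was found in 3 of the 19 genes outside the ER, Hsph1, Hspd1 and Hspe1, in 0 of the ER genes and in 0.603% of all windows. In Hsph1 it lay after the start. Hspd1 and Hspe1 encode HSP60 and HSP10, the barrel and lid of the mitochondrial chaperonin, and sit head to head on chromosome 1 with overlapping spans (55077833 to 55088243 and 55088148 to 55091317). The Hspd1 window used here begins from an inner start, so that the matches lie before that start yet inside the longest span of Hspd1. They are shown because both genes hold them in a window and differed in ratio. They are chr1:55088059-55088071 and chr1:55088064-55088076 in GRCm38.p6, on opposite strands and overlapping each other, beginning 89 and 84 bases before the start of Hspe1, and are read 5′ to 3′ on the strand of the motif with its fixed letters in capitals:
Minus strand: GAAggTTCtaGAA
Plus strand: GAAccTTCcgGAA

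ER genes of the HSP70 and HSP90 system were the role with the highest median log2 ratio, 0.33, and all 9 stood above 0. Their summed level was 1739 CPM without and 2171 CPM with Dox, a log2 ratio of 0.32 (0.29 to 0.35). The most abundant of the 9 were Hsp90b1 and Hspa5. Hsp90b1 (chromosome 10, 86690841 to 86705444) had 4484 and 10537 counts, or 590.0 and 741 CPM, a log2 ratio of 0.33 (0.28 to 0.38). Hspa5 (chromosome 2, 34772090 to 34776529), which encodes BiP, the ER HSP70, had 3951 and 9366 counts, or 519.9 and 658 CPM, a log2 ratio of 0.34 (0.29 to 0.39). The Dox library was thus the higher one for both, by 1.27-fold in Hspa5 and 1.26-fold in Hsp90b1. Exons of Hsp90b1 overlap those of a gene on the other strand, and the strand setting of the counting is not given. Such an overlap was found for 12 of the 48 genes, among them Syvn1, Trap1, Pdia6 and Hspa1a.

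Manf (chromosome 9, 106888753 to 106891938), a small secreted ER protein induced by unfolded proteins, had the largest ratio of the 48 genes. It had 579 and 1650 counts, or 76.2 and 116 CPM, which is 1.52-fold higher with Dox at a log2 ratio of 0.61 (0.47 to 0.75). With total counts in place of TMM scaling, or with the Dox counts thinned to the untreated depth, it no longer reached 1.5-fold. Its exons, too, overlap a gene on the other strand. The J-domain partners of BiP did not all stand at one ratio. Dnajb11 (ERdj3), at 82.5 CPM without and 115 CPM with Dox, gave a log2 ratio of 0.48 (0.35 to 0.62). Dnajc3 (p58IPK), which also inhibits PERK, stood at 170.4 CPM without and 215 CPM with Dox, log2 ratio 0.34 (0.24 to 0.43). Dnajb9 (ERdj4) was scarce, at 13.4 and 14.8 CPM, and the interval of its ratio of 0.14 held 0 (-0.21 to 0.49).

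The other 3 genes of this role had ratios below the role's median. Creld2, at 41.1 CPM without and 48.8 CPM with Dox, gave a log2 ratio of 0.25 (0.05 to 0.45). Hyou1, the large HSP70 that exchanges nucleotide on BiP, stood at 209 CPM without and 222 CPM with Dox, log2 ratio 0.08 (-0.003 to 0.17). Sdf2l1, which works with the J-domain protein ERdj3, stood at 36.6 and 39.9 CPM, and its interval also held 0 (-0.08 to 0.34). 3 of the 9 intervals in this role, those of Dnajb9, Hyou1 and Sdf2l1, thus held 0.

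The lectin chaperones and disulphide isomerases, which fold glycoproteins and form their disulphide bonds, had a median log2 ratio of 0.21, and 5 of 6 stood above 0. Pdia4, an isomerase found with BiP, had 783 and 2136 counts, or 103 and 150.2 CPM, a log2 ratio of 0.54 (0.42 to 0.66) and 1.46-fold. Pdia6 stood at 231 CPM without and 272 CPM with Dox, log2 ratio 0.23 (0.15 to 0.31). Pdia3, the isomerase that serves the lectins, was the most abundant per length of the ER genes, at 777 CPM without and 889.7 CPM with Dox and its log2 ratio was 0.20 (0.15 to 0.24). The 2 lectins stood on either side of 0. Calr, which encodes the soluble lectin calreticulin, stood at 466 CPM without and 566 CPM with Dox, log2 ratio 0.28 (0.22 to 0.34). Canx, which encodes its membrane-bound relative calnexin, stood at 629.8 CPM without and 597 CPM with Dox, log2 ratio -0.08 (-0.13 to -0.03). Their intervals did not overlap, and neither interval held 0. P4hb, the founding isomerase of the family, was level, at 311 CPM without and 312 CPM with Dox, log2 ratio 0.01 (-0.06 to 0.08), and with total counts its sign turned, to -0.04.

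Of the 3 sensors and factors of the UPR, Xbp1 alone had an interval wholly above 0, and 0 had one wholly below. Ern1 was the scarcest of the 46 genes past 5 CPM. It had 78 and 188 counts, or 10.3 and 13.2 CPM, with a log2 ratio of 0.36 whose interval held 0 (-0.02 to 0.76). Xbp1, the factor made by IRE1 splicing, stood at 44.5 CPM without and 52.4 CPM with Dox, log2 ratio 0.23 (0.05 to 0.43). Atf6 was nearly level, at 58.9 CPM without and 57.2 CPM with Dox, log2 ratio -0.04 (-0.21 to 0.13). The ratio of Ern1 rests on few counts, and the wide interval limits what can be said of it.

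ER-associated degradation removes proteins that fail to fold, and 3 of its 4 genes stood higher with Dox. Syvn1, the ubiquitin ligase HRD1, had 371 and 965 counts, or 48.8 CPM without and 67.8 CPM with Dox, for a log2 ratio of 0.47 (0.30 to 0.65). Sel1l, its membrane partner, stood at 95 CPM without and 113 CPM with Dox, log2 ratio 0.25 (0.13 to 0.38). Edem1, a lectin-like protein that hands glycoproteins to degradation, had the same rounded ratio, 0.25 (0.20 to 0.30), at 605 and 718 CPM. Per length, Edem1 stood 6.85-fold above Sel1l without Dox and 6.82-fold above it with Dox, so their relation held in both libraries. Herpud1, an ER membrane protein strongly induced by ER stress, was the exception, at 53.8 CPM without and 50.9 CPM with Dox, log2 ratio -0.08 (-0.26 to 0.10).

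**Figure D3:**
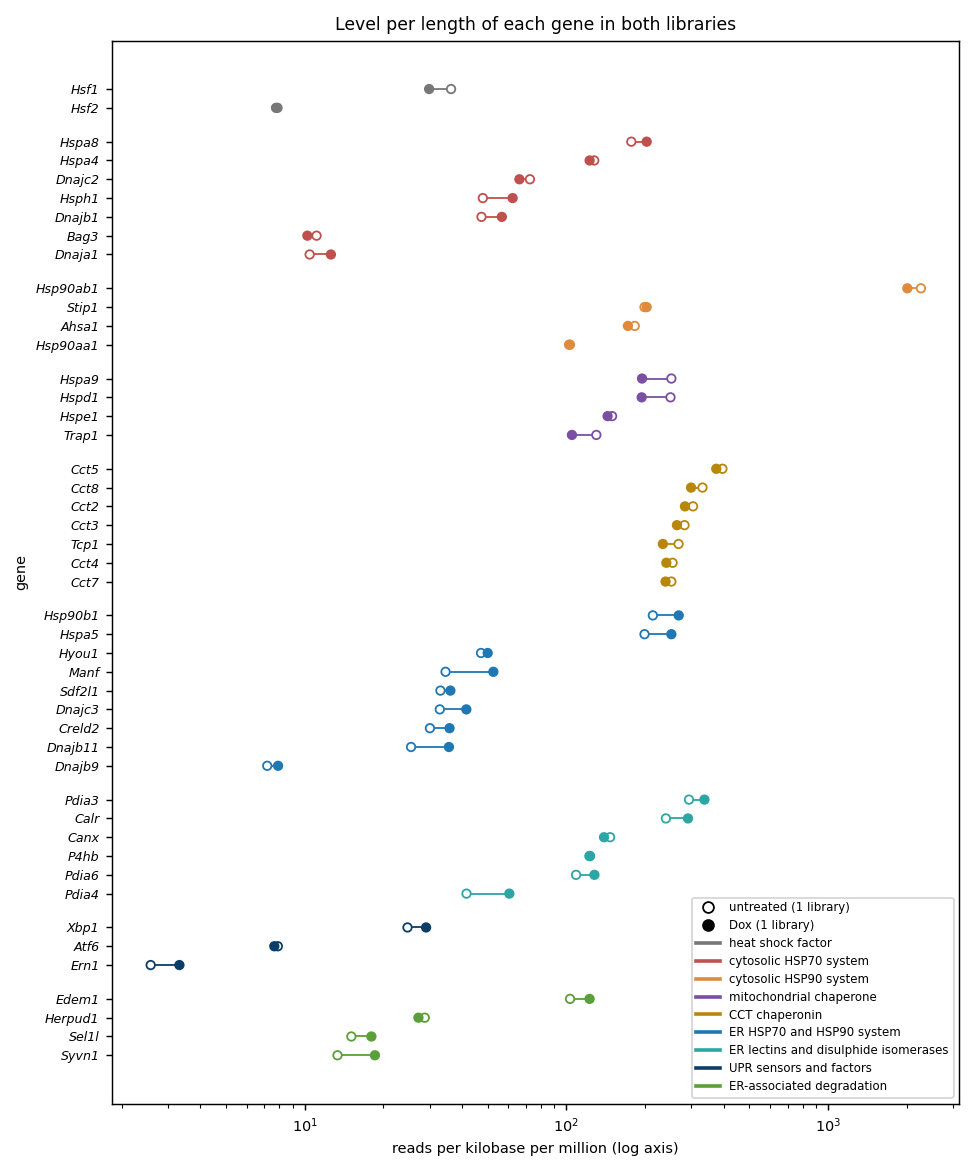
Level of each gene past 5 CPM (y axis, grouped by role) in RPKM (CPM per kilobase of gene length) on a log axis (x axis), with open circles for the untreated library and filled circles for the Dox library. Hsp90ab1 stands alone at 2259 and 2005, the CCT subunits lie between 234 and 394, and the paired circles of most genes lie close together.

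Mitochondrial chaperones had the lowest median of the 9 roles, and their summed level was 1762 CPM without and 1395 CPM with Dox, a log2 ratio of -0.34 (-0.37 to -0.30). Hspa9, or mortalin, the HSP70 that pulls proteins into mitochondria, had 5820 and 8417 counts, or 766 and 592 CPM, a log2 ratio of -0.37 (-0.42 to -0.32). Hspd1 had 4426 and 6430 counts, or 582 and 452 CPM, and nearly the same ratio, -0.37 (-0.42 to -0.31). Trap1, the mitochondrial HSP90, stood at 299 CPM without and 241 CPM with Dox, log2 ratio -0.31 (-0.39 to -0.23). Hspe1 did not share this size. It stood at 115 CPM without and 110.3 CPM with Dox, log2 ratio -0.06 (-0.18 to 0.06), and its interval did not overlap that of its neighbour Hspd1. Per length, Hspd1 stood 1.67-fold above Hspe1 without Dox and 1.35-fold above it with Dox. The mitochondrial HSP70 Hspa9 stood 1.27-fold above the ER HSP70 Hspa5 per length without Dox and at 0.773 of its level with Dox, so that their order differed between the libraries.

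The CCT complex was the most even role. Each of its 7 listed subunits had between 3801 and 6013 untreated counts, and all 7 ratios lay between -0.20 and -0.07 with intervals wholly below 0. Tcp1, which encodes subunit alpha, had the lowest ratio, -0.20 (-0.25 to -0.15), at 634 and 552 CPM. Cct8 followed at 791 CPM without and 716 CPM with Dox, log2 ratio -0.14 (-0.19 to -0.10). Cct7 lay at the other end, at 617 CPM without and 586 CPM with Dox, log2 ratio -0.07 (-0.13 to -0.02). The subunits Cct2 at -0.10, Cct3 at -0.10, Cct4 at -0.08 and Cct5 at -0.08 lay between these. In the assembled complex each subunit is present equally often, and their levels per length spanned 252 to 394 CPM per kilobase without Dox, a range of 1.57-fold, and 234 to 374 with Dox, a range of 1.60-fold. Exons of Tcp1, Cct7 and Cct8 overlap those of genes on the other strand.

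The cytosolic HSP70 system split. Hspa8, the constitutive HSP70 (HSC70), had 2829 and 6063 counts, or 372 and 426 CPM, a log2 ratio of 0.20 (0.13 to 0.26). Hsph1, an HSP110 that exchanges nucleotide on HSP70, stood at 167 CPM without and 217 CPM with Dox, log2 ratio 0.38 (0.28 to 0.47), the largest outside the ER. The J-domain genes Dnaja1 and Dnajb1 stood on the same side. Dnaja1 had 60.5 CPM without and 73.0 CPM with Dox and its log2 ratio was 0.27 (0.11 to 0.43), and its exons overlap a gene on the other strand. Dnajb1 had 107 CPM without and 128 CPM with Dox and its log2 ratio was 0.26 (0.14 to 0.38). The remaining genes stood slightly under 0. Hspa4, another HSP110, at 593 CPM without and 569 CPM with Dox, gave a log2 ratio of -0.06 (-0.11 to -0.01). Dnajc2, which acts at the ribosome, stood at 148 CPM without and 135 CPM with Dox, log2 ratio -0.13 (-0.24 to -0.03). Bag3, a partner of HSP70 in selective autophagy, stood at 28.8 and 26.6 CPM, and its interval held 0 (-0.36 to 0.13).

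The heat-inducible HSP70 genes were nearly absent. Hspa1b had 2 and 3 counts, and Hspa1a had 0 in both libraries, where a count of 0 allows up to 0.395 CPM without and 0.211 CPM with Dox. They are near-identical copies, and how the authors treated reads that match both is not given, so that these 2 values are uncertain. The heat shock factors themselves were measured. Hsf1, the main factor of the heat shock response, stood at 73.2 CPM without and 60.3 CPM with Dox, log2 ratio -0.28 (-0.43 to -0.12). Hsf2 stood at 20.7 CPM without and 20.4 CPM with Dox, log2 ratio -0.02 (-0.30 to 0.27). Immediate early genes, which also respond to handling of cells, summed to 662 and 821 CPM, with Jun at 159.7 and 29.1 CPM and Egr1 at 67.2 and 129 CPM, and the part of handling in the chaperone values was not tested.

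Hsp90ab1, the constitutive cytosolic HSP90, dominated the whole set. It had 43045 and 71516 counts, or 5664 and 5027 CPM, and was number 15 by level per length in both libraries among those past 5 CPM. Its log2 ratio was -0.17 (-0.19 to -0.15), and how reads shared with other copies were counted is not given. The inducible form Hsp90aa1 stood at 294 CPM without and 292 CPM with Dox, log2 ratio -0.01 (-0.09 to 0.06). Per length, Hsp90ab1 exceeded Hsp90aa1 by 21.9-fold without and 19.6-fold with Dox. Of their partners, Stip1 (HOP), which links HSP70 to HSP90, stood at 432 CPM without and 440.0 CPM with Dox, log2 ratio 0.03 (-0.03 to 0.09), which turned to -0.02 with total counts. Ahsa1, which activates the HSP90 ATPase, stood at 241 CPM without and 227 CPM with Dox, log2 ratio -0.09 (-0.17 to -0.003).

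Summed over all 48 genes, the set made up 1.98% of all counts in untreated cells and 1.88% with Dox. The ER genes alone made up 0.526% and 0.593%, and the other 26 genes 1.46% and 1.29%. Hsp90ab1 weighs heavily in the second sum. The summed log2 ratio was 0.22 (0.20 to 0.24) for the 22 ER genes and -0.13 (-0.14 to -0.12) for the others. The median over the 46 genes past 1 CPM, 0.02, lies between the compartments and describes neither.

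**Figure D4:**
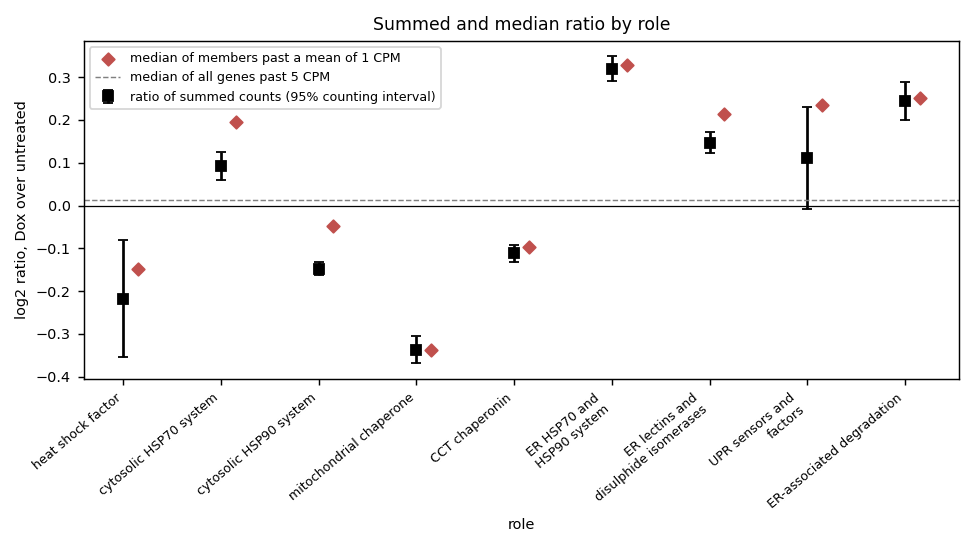
Log2 ratio of Dox over untreated (y axis) for each of 9 roles (x axis), as the ratio of summed counts (black squares, bars for the exact 95% counting interval) and as the median over the members (red diamonds); the dashed line is the median of all genes past 5 CPM. The ER roles lie above 0, though the interval of the summed UPR sensors and factors holds 0 (-0.008 to 0.23). The heat shock factor, mitochondrial and CCT roles lie below 0. The sums of the cytosolic HSP70 and HSP90 systems fall on either side of 0, at 0.09 and -0.15.

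A wider set of 142 genes of the same pathways, in 5 lists, held 1 gene past 1.5-fold. A call also needed 5 CPM, which not all of the 142 reached. Of all genes past 5 CPM, 6.28% were at least 1.5-fold higher with Dox and 6.18% at least 1.5-fold lower. The called gene of the set was Pdia5, an ER disulphide isomerase, which also passed 2-fold. It stood 2.11-fold lower with Dox, at 68 and 59 counts or 8.95 and 4.15 CPM, a log2 ratio of -1.08 (-1.64 to -0.58). In the list of ER quality control and degradation, 18 of 22 genes past 5 CPM stood above 0, the median was 0.10, and 0 passed 1.5-fold. In the list of ER translocation, glycosylation and folding, 25 of 44 stood above 0 and the median was 0.03. Over all genes past 5 CPM, 51.8% stood above 0 and 48.2% under 0.

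Mitochondrial import and protease genes stood under 0 in 12 of 17 cases past 5 CPM, with a median of -0.20. The proteases and translocases named below were picked after their values were seen. Timm50, of the inner membrane translocase, stood at 100 CPM without and 77.4 CPM with Dox, log2 ratio -0.37 (-0.50 to -0.23). Htra2, a protease of the intermembrane space, stood at 22 CPM without and 15.1 CPM with Dox, log2 ratio -0.53 (-0.84 to -0.24). Grpel1, the exchange factor of mortalin, stood above 0, at 85.4 CPM without and 93.8 CPM with Dox, log2 ratio 0.14, and its interval reached just under 0. Cytosolic cochaperones and prefoldin were evenly divided, with 18 of 36 genes on each side and a median of 0.02.

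The PERK branch and other UPR regulators had 6 of 14 genes above 0, a median of -0.09 and 0 past 1.5-fold. Within the list Eif2ak3, Atf4 and Ddit3, named after their values were seen, stood on different sides. Counts per gene do not measure the activity of PERK, because Atf4 responds to it through translation. Eif2ak3, which encodes PERK, had 348 and 900 counts, or 45.8 and 63.3 CPM, a log2 ratio of 0.46 (0.29 to 0.65). Atf4, the factor translated when PERK or related kinases are active, stood at 154 CPM without and 113 CPM with Dox, log2 ratio -0.45 (-0.56 to -0.34). Ddit3 (CHOP), a gene activated by ATF4, stood at 13.4 CPM without and 9.35 CPM with Dox, log2 ratio -0.51 (-0.90 to -0.14). Other genes of this list were Wfs1 at 0.49 (0.16 to 0.84), Tmbim6 at 0.43 (0.36 to 0.51) and Ppp1r15a at -0.17 (-0.43 to 0.10). Intervals lay wholly above 0 for 3 genes of the list, wholly below 0 for 5 and held 0 for 6. The library in which Atf4 and Ddit3 stood lower was the one in which 14 of the 15 ER folding genes stood higher.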

How the data were processed

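RNA sequencing counts of 2 libraries, 1 untreated and 1 Dox, were used. The authors' deposited tables hold raw counts of reads for each gene and gene lengths in bases. Per the submitters' processing notes, CASAVA 1.8.2, featureCounts and the build mm10 were used; the sources used here do not give the aligner, the annotation, the strand setting, the treatment of shared reads or how mice and runs were combined. The table of the series and the file of each library differed in 0 values. Symbols came from RefSeq (GRCm38.p6, the assembly behind mm10) for 25275 of 27179 genes, and exon overlaps from GENCODE.

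CPM was taken over library sizes scaled by TMM in edgeR 4.0.16 (R 4.3.3), with factors of 1.02 and 0.984. Log2 ratios used a prior count of 2. Intervals are exact 95% Clopper-Pearson intervals on the split of a gene's counts and, like the limit of 3 counts that a 0 allows, cover counting error only. Calls needed 1.5-fold or 2-fold and 5 CPM in the higher library, and medians a mean of 1 CPM. RPKM divides CPM by the deposited gene length. The calculation of ratios and intervals was run on simulated counts with counting error only. Spread between mice, sorts or library preparations was not simulated, so the run cannot tell how well the intervals cover it.

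The genes and lists were chosen with earlier results of these data known. All 48 genes are named, and of the wider lists those past 1.5-fold with 5 CPM, up to 4 per list, beside genes marked as picked later. Alternatives were the size factors of DESeq2 1.42.0, scaling by total counts, a prior count of 0.5 or 5, other CPM minimums, thinned Dox counts, the interval bound and, added after seeing the data, removal of the trend with gene length. For 32 of the 38 genes with a promoter window, the bases after its start were found near the start of a GENCODE transcript. Calls among genes that reached 100 CPM were also added after seeing the data. Intervals came from scipy 1.17.1 and figures from matplotlib 3.10.9, under Python 3.11.15.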

Additional observations from a re-analysis of the deposited data

How the results depend on the processing

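Of 165 values recomputed for 20 results under 10 alternative settings, 161 moved a median by less than the typical counting error of a single gene in the list, or stayed within 1.5 times the count, and the medians of all 9 roles kept their sign under each of them. The number of genes at least 1.5-fold higher, 1 in the report (Manf), was 0 with total counts, 0 with thinned Dox counts and 0 when the interval bound nearest to 0 had to pass. The median of the cytosolic HSP70 system, 0.20, was 0.068 with no CPM minimum, which adds Hspa1b. Medians near 0 changed sign under total counts: all 48 genes, from 0.02 to -0.03, cochaperones and prefoldin, from 0.02 to -0.03, and ER translocation, from 0.03 to -0.02. The mitochondrial median ranged from -0.38 to -0.31, the CCT median from -0.14 to -0.10 and the median of the ER HSP70 and HSP90 system from 0.28 to 0.33. Total counts moved every ratio by -0.05 and turned the signs of Stip1 and P4hb; DESeq2 size factors turned none. No paired analysis was possible because each group has 1 library, which also leaves no replicate to leave out. Low counts limit Ern1, Dnajb9 and Hspa1b.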

Other observations

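Genes outside the 48 whose promoter window holds an ER stress element were looked up after the values were seen. Of 24 such genes in the count table, 6 had at least 5 CPM, with a median log2 ratio of 0.00, 3 above 0 and 3 under 0. Alg12, a mannosyltransferase of ER glycan assembly, stood at 10.1 CPM without and 15.5 CPM with Dox, log2 ratio 0.60 (0.23 to 1). Ero1b, an oxidase that recharges disulphide isomerases, stood at 12.1 CPM without and 14.4 CPM with Dox, log2 ratio 0.25 (-0.11 to 0.62). Hnrnpa3 stood at 0.08 (-0.02 to 0.19), Adcy3 at -0.08 (-0.25 to 0.09), Pan2 at -0.31 (-0.43 to -0.19) and Xlr3b at -0.54 (-0.93 to -0.16). Alg12 and Ero1b had the 2 highest ratios of these 6 genes, and the interval of Ero1b held 0. The ER stress element II was held by 6 genes outside the 48 past 5 CPM. Their median log2 ratio was -0.05, with 3 above 0 and 3 under 0.

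The heat shock element of 3 units was held by 41 further genes past 5 CPM, with a median of 0.00, 21 above 0 and 20 under 0.

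The 5 signal peptidase genes of the ER translocation list, picked after their values were seen, stood above 0. This complex cuts the leader off proteins entering the ER. Spcs3 stood at 154 CPM without and 212 CPM with Dox, log2 ratio 0.46 (0.36 to 0.56), Spcs1 at 54.1 CPM without and 71.6 CPM with Dox, log2 ratio 0.40 (0.24 to 0.57) and Spcs2 at 133 CPM without and 170.0 CPM with Dox, log2 ratio 0.35 (0.24 to 0.46). Sec11c, a catalytic subunit, was scarcer, at 11.3 CPM without and 14.6 CPM with Dox, log2 ratio 0.36 (-0.01 to 0.74). Sec11a, the other catalytic subunit, stood at 66.6 CPM without and 77 CPM with Dox, log2 ratio 0.21 (0.06 to 0.37), below Ppib at 0.34, Dad1 at 0.26 and Ostc at 0.26 in the same list.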
